A study of Arabidopsis thaliana with 4 samples.

Results

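The genes described here are 8 loci of auxin biosynthesis in roots of Arabidopsis thaliana: the tryptophan aminotransferase gene TAA1 (AT1G70560), the flavin monooxygenase genes YUC3 (AT1G04610), YUC5 (AT5G43890), YUC6 (AT5G25620), YUC8 (AT4G28720) and YUC9 (AT1G04180), and the anthranilate synthase subunit genes ASA1 (AT5G05730) and ASB1 (AT1G25220). They were chosen by name as genes of the route to indole-3-acetic acid, and make up 8 of the 22284 loci listed in the deposited count table. Total RNA of roots was sequenced in 4 libraries, 1 for each group, from pools of seedlings (about 500 by the labels), 6 days old, of the Col-0 background in a 2% MGRL nutrient solution at pH 5.0. The groups were plants labelled arf10/arf16 (a double mutant by the label) with 10 µM AlCl3 for 24 h, wild type with the same AlCl3 treatment, plants labelled arf10/arf16 with 0 µM AlCl3, and wild type with 0 µM AlCl3. Because each group has 1 library, no pairwise difference below has a replicate, and the intervals given cover counting error only.

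Indole-3-acetic acid, the main natural auxin, is made in plants chiefly in a pair of steps from tryptophan. TAA1 and its relatives convert tryptophan to indole-3-pyruvic acid, and the YUCCA flavin monooxygenases convert that acid to auxin, a step regarded as rate-limiting. Anthranilate synthase, an enzyme of an alpha and a beta subunit, makes the first committed precursor of tryptophan. In roots, auxin made locally near the tip adds to auxin carried from the shoot, and aluminium ions in acid soil stop root growth at the tip. ARF10 and ARF16 are auxin response factors, transcription factors that act on auxin-regulated genes. The series, by its title, is about how Al stress acts on transcripts in the double mutant.

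The libraries held 2080348 to 2280894 reads. ARF10 had 2640 reads with Al and 3820 without in the libraries labelled arf10/arf16, against 142 and 110 reads in wild type, so its level goes against the label of the line. ARF16 had 41 and 71 reads in those libraries, against 75 and 159 in wild type. The libraries are therefore called by their label, shortened to arf10/16, and each direction between genotypes rests on it; the Al comparison in wild type does not involve these libraries. All 6 markers of differentiated root were read in each library, and their summed level was 419 CPM in the arf10/16 library and 259 CPM in wild type with Al, against 2861 and 2842 CPM without Al. Of 7 shoot markers, 1 or 2 had no read in each library, and their summed level was 38.2 to 82.6 CPM. In bulk roots, fewer cells of a type and less RNA per cell cannot be told apart.

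The 8 genes were of low to middle abundance, with 5 to 75 reads per library, so the counting intervals of most ratios between libraries were wide. Per length of transcript, YUC8 led in 3 of 4 libraries, at 8.61 RPKM (reads scaled for transcript length and library size) in the arf10/16 library with Al, 19.6 RPKM in wild type with Al, 13.4 RPKM in arf10/16 without Al and 12.3 RPKM in wild type without Al. In arf10/16 with Al, YUC5 stood above it at 9.80 RPKM, but the 95% counting interval of their ratio included 1. In wild type without Al the order was YUC8, YUC3 (12.1 RPKM), TAA1 (9.93 RPKM), YUC5 (7.38 RPKM), YUC9 (4.95 RPKM), YUC6 (2.13 RPKM), ASB1 (1.69 RPKM) and ASA1 (1.51 RPKM), and no neighbours in this order differed beyond counting error. In wild type with Al, YUC3 was last at 2.02 RPKM, and YUC8 stood 2.04-fold above the next gene, YUC5 (1.31 to 3.27). YUC9, at 8.31 RPKM in that library, stood 2.41-fold above TAA1, at 3.45 RPKM (1.14 to 5.45). These were the only neighbours in any of the 4 orders whose ratio exceeded counting error.

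The reads of 5 genes come from a single listed transcript model each. ASA1, ASB1 and YUC6 each have 2 listed models, and loci with 2 models had a median of 21.5 reads over the 4 libraries together, against 95 for loci with 1 model, and the sources used here do not say how reads shared between models were counted. The model lengths behind the RPKM of YUC5 (1275 bases) and YUC9 (1266 bases) equal their coding lengths in the RefSeq annotation (assembly TAIR10.1), whereas those of TAA1 (1399 bases), YUC3 (1737 bases) and YUC8 (1674 bases) are longer than their coding lengths of 1176, 1314 and 1281 bases.

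Transcripts of the 5 YUC genes shared few or no exact stretches of 36 bases with other loci. How reads with mismatches were placed is not known, since no aligner was named. Among the 10 pairs of the 5 YUC genes, coding sequences of the RefSeq annotation were 63.6% to 81.0% identical, highest between YUC5 and YUC9. No stretch of 36 bases of a YUC3, YUC6 or YUC8 transcript occurred in a transcript of another locus, and 0.4% of such stretches of YUC5 and 0.62% of YUC9 did. TAA1 shared 0.07% with its relative TAR1. ASB1 differs from these: 50.8% of its stretches of 36 bases occurred in transcripts of 12 other loci, among them AT1G24807, a near-identical copy (97.3% of the coding bases), and AT5G57890 (95.3%). ASB1 reads can therefore be split among copies, and its values below are uncertain. AT5G57890 had 12 reads in arf10/16 and 7 in wild type with Al, then 11 in arf10/16 and 14 in wild type without Al. The near-identical copies AT1G24807, AT1G24909, AT1G25083 and AT1G25155 had no listed counts, so their reads could not be set beside those of ASB1. Where reads shared with these copies were counted is not known. The F-box gene AT1G25211, which overlaps ASB1 on the other strand, had 21, 13, 15 and 10 reads in the same order of libraries, and the sources used here name no strand setting for the counting. ASA1 shared 6.86% of its stretches with AT5G05735, an overlapping locus on the other strand.

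**Figure D1:**
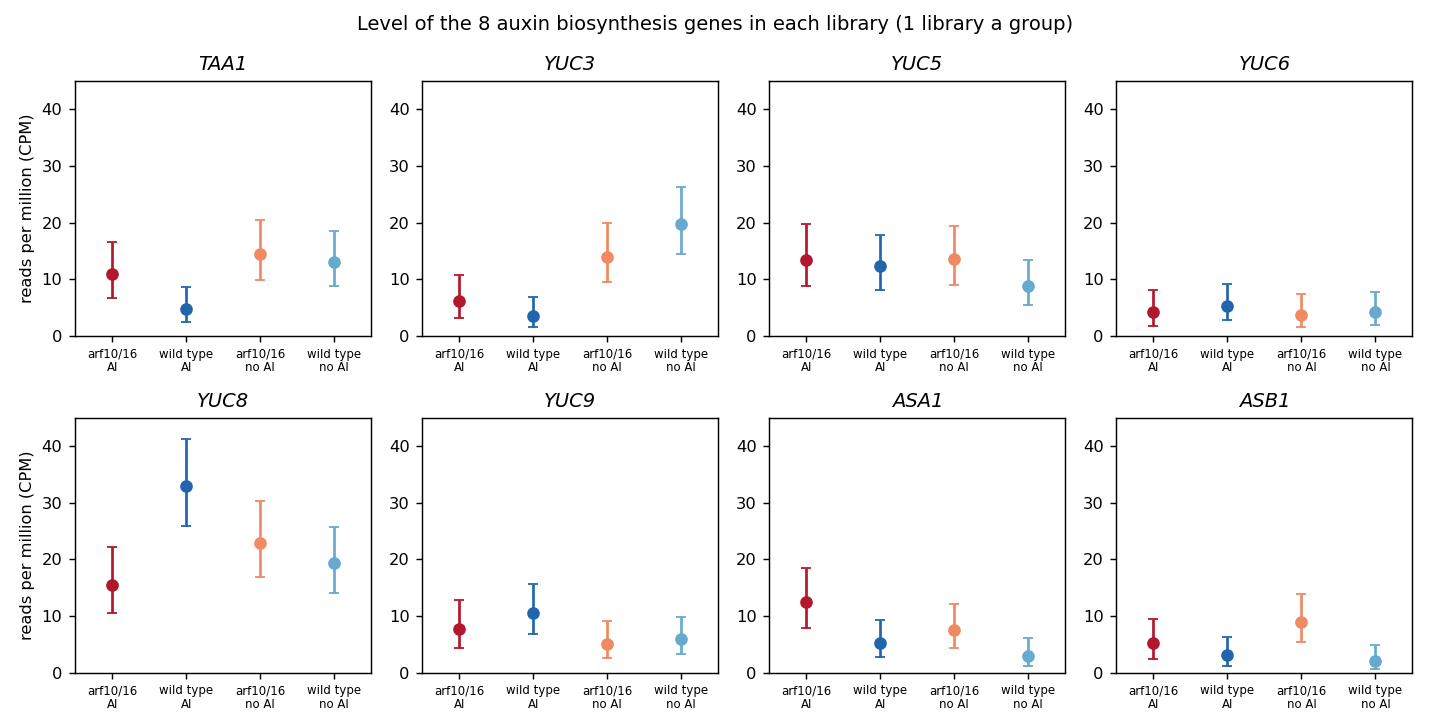
Level of each gene in CPM (reads scaled for library size by TMM) in the arf10/16 and wild-type libraries with Al and without Al; points are single libraries and bars are exact 95% Poisson counting intervals. YUC3 is lower in both libraries with Al (6.20 and 3.51 CPM) than in both without (14.0 and 19.7 CPM), and YUC8 is highest in wild type with Al (32.9 CPM).

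In wild-type roots the question is how these genes differed with Al. YUC3 and TAA1 were lower with Al, and the other 6 genes had ratios above 1, with YUC8 the only one of them whose interval excluded 1. Differences were counted by a rule of size, which is not a test: a log2 ratio of CPM of 1 or more either way, with 1 outside the exact 95% interval that counting error gives the ratio. By it 2 of 8 genes differed, both lower, against 26.5% of all 14739 loci that passed the filter on low counts (12.1% lower and 14.4% higher), so the share of these genes is near the background.

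YUC3 had 8 reads in wild type with Al, against 47 in wild type without Al, and was 5.61-fold lower (95% counting interval 2.63 to 13.7). TAA1 had 11 reads with Al, against 31 without Al, and was 2.69-fold lower (1.32 to 5.93). Both genes had their lowest level of the 4 libraries in wild type with Al, at 3.51 CPM for YUC3 and 4.83 CPM for TAA1.

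YUC8 had 75 reads with Al, against 46 without Al, and was 1.71-fold higher (1.17 to 2.52), which is short of the rule of size. YUC9 had 24 reads with Al, against 14 without Al (1.80-fold, 0.89 to 3.75). YUC5 had 28 and 21 reads (1.40-fold, 0.77 to 2.59), and YUC6 had 12 and 10 reads (1.26-fold, 0.50 to 3.25). The ratios of YUC5, YUC6 and YUC9 were thus within counting error. ASA1 had 12 reads with Al, against 7 without Al (1.80-fold, 0.65 to 5.38), and ASB1 had 7 and 5 reads (1.47-fold, 0.40 to 5.86), both also within counting error. The median log2 ratio of the 8 genes was 0.42, beside 0.01 for all 14739 loci.

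Summed over the 5 YUC genes, the ratio in wild type was within counting error. The 5 genes had 147 reads with Al (64.6 CPM), against 138 reads without Al (57.9 CPM), a ratio of 1.12 (0.88 to 1.42). YUC3 made up 5.44% of these reads with Al (Wilson 95% interval 2.78 to 10.4), against 34.1% without Al (26.7 to 42.3). YUC8 made up 51.0% with Al (43.0 to 59.0), against 33.3% without Al (26.0 to 41.6). The intervals of the YUC3 share with and without Al did not overlap. Shares of 1 sum are linked: of the reads without YUC3, YUC8 made up 54.0% with Al (45.7 to 62.0), against 50.5% without Al (40.5 to 60.6), and these intervals overlapped.

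**Figure D2:**
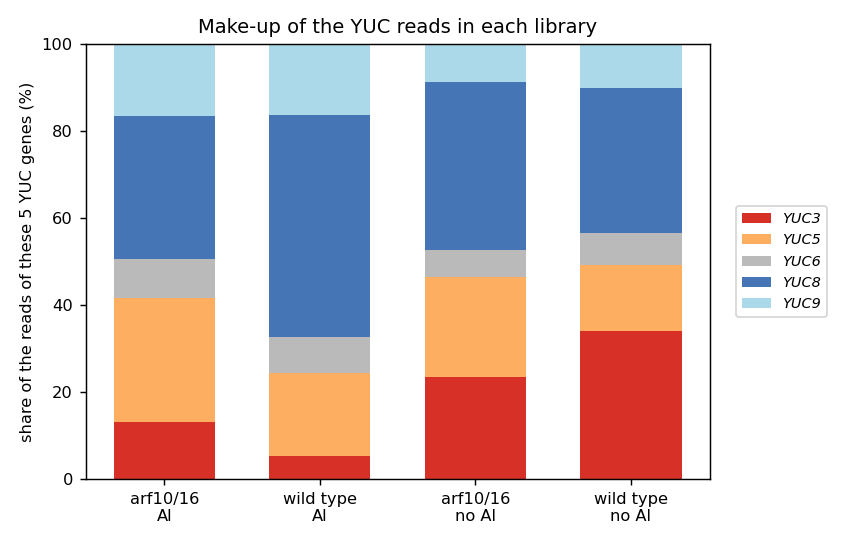
Share of the reads of YUC3, YUC5, YUC6, YUC8 and YUC9 (%) that fell to each gene, in the arf10/16 and wild-type libraries with Al and without Al; each bar is 1 library. The YUC3 share is 13.2% and 5.44% with Al, against 23.6% and 34.1% without Al, and YUC8 exceeds 50% of the reads in wild type with Al (51.0%).

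The same comparison in the pair labelled arf10/16 gave a smaller difference for YUC3 and none past the rule for TAA1. By the rule of size 1 of 8 genes differed, against 20.2% of all loci tested (9.41% lower and 10.8% higher), again no more than the background. YUC3 had 12 reads in arf10/16 with Al, against 30 in arf10/16 without Al, and was 2.26-fold lower (1.12 to 4.84). TAA1 had 21 reads with Al, against 31 without Al (1.33-fold lower, 0.74 to 2.44), a ratio within counting error.

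YUC8 had 30 reads in arf10/16 with Al, against 49 in arf10/16 without Al, and its ratio lay on the other side of 1 from that in wild type (1.47-fold lower, 0.92 to 2.41). YUC5 had 26 and 29 reads, nearly equal after scaling (1.01-fold lower, 0.57 to 1.78). YUC6 had 8 reads in both libraries, and YUC9 had 15 and 11 (1.51-fold higher, 0.65 to 3.64). ASA1 had 24 and 16 reads (1.66-fold higher, 0.85 to 3.35), and ASB1 had 10 and 19 (1.72-fold lower, 0.76 to 4.13). All of these intervals included 1. The median log2 ratio of the 8 genes was -0.20, beside -0.02 for all loci. Summed over the 5 YUC genes there were 91 reads with Al (47.0 CPM), against 127 without Al (59.2 CPM), a ratio of 0.79 (0.60 to 1.05). YUC3 made up 13.2% of them with Al (7.71 to 21.6), against 23.6% without Al (17.1 to 31.7).

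**Figure D3:**
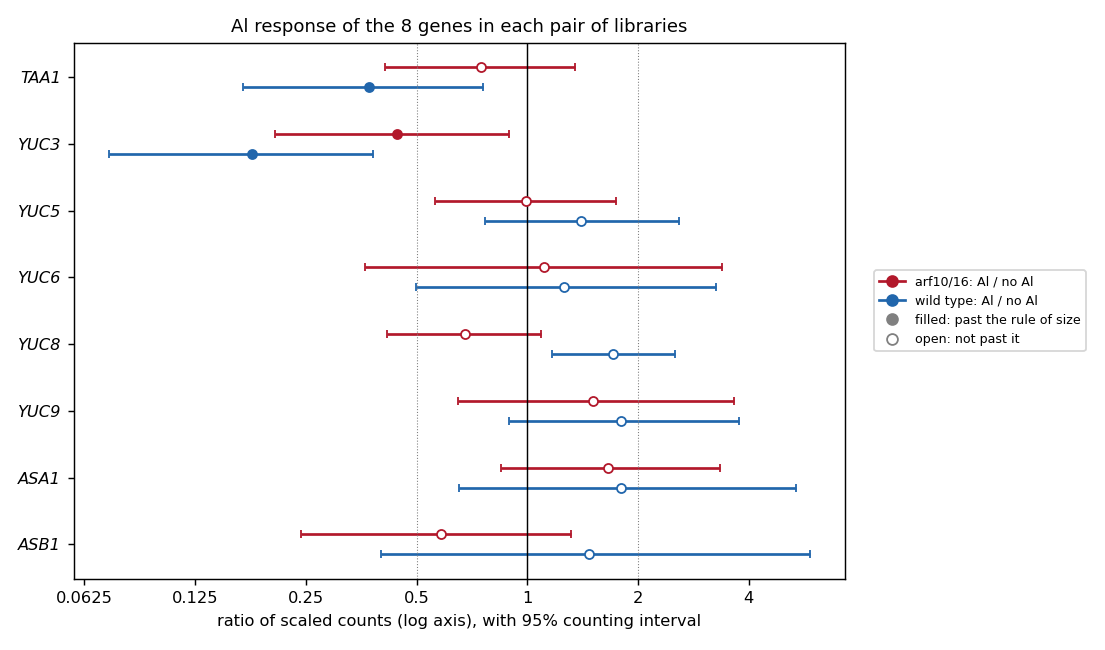
Ratio of scaled counts with Al over without Al (log axis) for each gene in the pair labelled arf10/16 and in the wild-type pair; bars are exact 95% counting intervals, filled points are past the rule of size, and dotted lines mark ratios of 0.5 and 2. YUC3 is left of 1 in both pairs, TAA1 is past the rule in wild type only, and the YUC8 points lie on opposite sides of 1.

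An additive model of genotype and treatment was fitted over all 4 libraries, with the quasi-likelihood test of edgeR. With Al 1 of the 8 genes changed: YUC3 fell (log2 effect -1.81 ± 0.41, SE; adjusted p = 0.0114), lower with Al in 2 of 2 pairs. Of all loci tested, 28.5% passed, 15.5% rising and 13.1% falling. The model leaves 1 residual degree of freedom, with 2 libraries on each side. That degree of freedom is the departure from additive effects, not a spread between replicates. DESeq2's Wald test, an alternative, gave YUC3 nearly the same effect of -1.82 with an adjusted p of 0.143, so the call was not made by both tools. TAA1 had a log2 effect of -0.86 ± 0.37 (adjusted p = 0.123 in the edgeR test) and did not pass. The remaining 6 effects lay between -0.32 for ASB1 and 0.77 for ASA1, with adjusted p of 0.21 to 0.758 in that edgeR test.

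The next comparison asks whether the Al response differed between the genotype labels. The difference of the log2 Al responses, arf10/16 minus wild type, was past the rule of size for 1 of the 8 genes, YUC8, against 8.16% of all loci (4.84% lower and 3.31% higher). For YUC8 it was -1.28 (95% counting interval -2.16 to -0.48): the gene was 1.47-fold lower with Al in arf10/16 and 1.71-fold higher in wild type. For YUC3 the difference was 1.15 (-0.14 to 2.69) and for TAA1 0.89 (-0.27 to 2.24), the response being smaller in arf10/16 in both cases, but both intervals included 0. The other 5 differences lay between -1.09 for ASB1 (-3.18 to 0.66) and -0.02 for ASA1 (interval also across 0). With 4 single libraries this difference could not be tested.

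Without Al, ASB1 was higher in arf10/16 than in wild type, and the ratios of the other 7 genes, ASA1 included, had intervals that included 1. ASB1 was the 1 gene of 8 past the rule of size, against 10.6% of all loci (7.96% higher and 2.6% lower; 75.4% of the loci past the rule were higher, or 61.7% with scaling by total counts). ASB1 had 19 reads in arf10/16, against 5 in wild type, and was 4.23-fold higher (1.53 to 14.5), with the limit on its copies given above. ASA1 had 16 reads in arf10/16, against 7 in wild type (2.54-fold higher, 0.99 to 7.31), with an interval that just included 1. Together the reads of both subunits were 35 in arf10/16 and 12 in wild type (3.24-fold higher, 1.64 to 6.87). This sum includes the ASB1 reads and carries the same limit on its copies. TAA1 had 31 reads in both libraries. The YUC genes summed to 127 reads in arf10/16 and 138 in wild type (ratio 1.02, 0.80 to 1.31). Among them YUC3 had 30 reads in arf10/16, against 47 in wild type (1.41-fold lower, 0.87 to 2.31), and YUC5 had 29, against 21 (1.54-fold higher, 0.85 to 2.83), both within counting error.

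With Al, 3 of the 8 genes differed between the genotype labels by the rule of size, against 5.89% of all loci (4.12% higher and 1.77% lower; 69.9% of the loci past the rule were higher, or 55.3% with scaling by total counts): TAA1 and ASA1 were higher and YUC8 lower in arf10/16. YUC8 had 30 reads in arf10/16 with Al, against 75 in wild type with Al, and was 2.13-fold lower (1.37 to 3.36). ASA1 had 24 reads, against 12, and was 2.35-fold higher (1.13 to 5.16). TAA1 had 21 reads, against 11, and was 2.25-fold higher (1.04 to 5.16); scaled by total counts, TAA1 no longer passed the rule. YUC3 had 12 reads in arf10/16 and 8 in wild type (1.76-fold higher, 0.66 to 4.98), and YUC9 had 15 and 24 (1.36-fold lower, 0.685 to 2.79). These 2 ratios were within counting error, as were those of YUC5, YUC6 and ASB1. The YUC reads together were 91 in arf10/16, against 147 in wild type, 1.37-fold lower (1.05 to 1.80). Without YUC8 they were 61 in arf10/16 (31.5 CPM), against 72 in wild type (31.6 CPM), a ratio of 0.997 (0.70 to 1.42). Both subunit genes of anthranilate synthase together had 34 reads in arf10/16, against 19 in wild type (2.10-fold higher, 1.17 to 3.91). This sum also includes the ASB1 reads, with the limit on its copies given above.

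**Figure D4:**
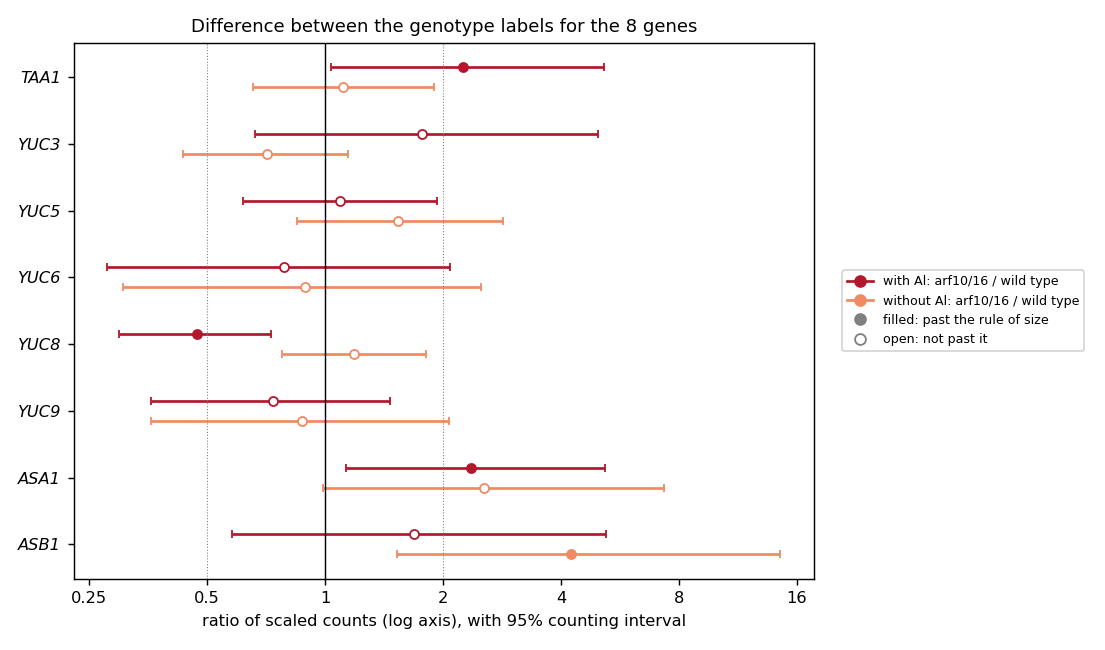
Ratio of scaled counts in the arf10/16 over the wild-type library (log axis) for each gene, with Al and without Al; bars are exact 95% counting intervals and filled points are past the rule of size. ASA1 and ASB1 lie right of 1 in both comparisons (2.35 and 1.68 with Al, 2.54 and 4.23 without Al), and YUC8 is left of 1 with Al.

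Over both treatments, none of the 8 genes passed the edgeR test for genotype, against 2.16% of all loci tested (1.86% higher and 0.305% lower in arf10/16). ASB1 and ASA1 had the largest genotype effects among them, 1.42 ± 0.56 and 1.27 ± 0.42 (log2, SE; adjusted p = 0.269 and 0.188 in that test). Both genes, and no other of the 8, were among the 2293 of 14739 loci under 0.05 before adjustment. Both were higher in arf10/16 in 2 of 2 comparisons. Limma-trend on log2(RPKM + 0.1) gave ASB1 an effect of 1.31 and ASA1 one of 1.13 (adjusted p = 0.330 and 0.326). With a pseudocount of 0.1 or 1 it called none of the 8 genes, and 0 or 2 of 14739 loci. DESeq2's Wald test gave ASB1 an effect of 1.42 and ASA1 one of 1.29; it gave an adjusted p to 1 of the 8 genes, YUC8, and none to the other 7.

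For each gene, the loci with a symbol whose 4 centred log2 CPM values lay nearest were looked up among 4798 with at least 100 reads in all. With 4 values per gene, such likeness is a description of these libraries only. Nearest to TAA1 was RR5, a type-A response regulator of cytokinin signalling, at a distance of 0.11 log2 units; it had 34 reads in arf10/16 with Al, 18 in wild type with Al, 51 in arf10/16 without Al and 46 in wild type without Al. Nearest to YUC3 was TUB1, a beta-tubulin gene, at 0.10, with 102, 79, 239 and 396 reads in the same order. Nearest to YUC8 was VPS2.3, of the endosomal sorting machinery, at 0.14, with 28, 61, 44 and 40 reads. Nearest to ASA1 was CYP81F3, a cytochrome P450 gene, at 0.17, with 390, 244, 304 and 158 reads, and nearest to ASB1 was PLDGAMMA1, a phospholipase D gene, at 0.12, with 842, 660, 1373 and 493 reads. The second nearest were MLP-300B for TAA1, sks4 for YUC3, NRPB6A for YUC8, BT5 for ASA1 and RPM1 for ASB1. The remaining 3 genes lay nearest to GSTU13 and bZIP16 for YUC5, PFN2 and HMGA for YUC6, and CEN2 and PS2 for YUC9.

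Further genes of the pathway were taken as lists, whose counts by the edgeR test stand beside 28.5% of all loci changed with Al (15.5% rose and 13.1% fell) and 2.16% for genotype. Of 10 other genes of the TAA and YUCCA families, 5 were measured and 2 passed the filter, the locus pair AT1G34040 and AT1G34060, which RefSeq describes as pyridoxal phosphate-dependent transferases. The other 3 measured were TAR2, YUC2 and YUC7, with at most 4 reads in any library. AT1G34040 fell with Al (log2 effect -2.39 ± 0.33; adjusted p = 0.00114 in the edgeR test) and AT1G34060 rose (1.49 ± 0.38; adjusted p = 0.0181). AT1G34040 had 18 reads in arf10/16 with Al, 15 in wild type with Al, 66 in arf10/16 without Al and 127 in wild type without Al; AT1G34060 had 19, 39, 7 and 15. Coding sequences of TAA1 were 59.8% and 61.5% identical with these 2 loci, 75.5% with TAR1 and 64.8% with TAR2.

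Among 18 other genes of tryptophan synthesis, ASA2 and AT5G57890 included, 9 passed the filter. With Al 1 of these 9 changed, beside 28.5% of all loci. TSBtype2, a tryptophan synthase beta gene, fell (-0.74 ± 0.19, adjusted p = 0.0196 in the edgeR test). None of the 9 was past the rule of size with Al in either pair, beside 20.2% of all loci in arf10/16 and 26.5% in wild type, and their median log2 ratios were -0.14 in arf10/16 and -0.15 in wild type. ASA2, the second alpha subunit gene, had 53 reads in arf10/16 with Al, 54 in wild type with Al, 56 in arf10/16 without Al and 63 in wild type without Al. TSB1, the main tryptophan synthase beta gene, had 641 reads in both libraries with Al, 1175 in arf10/16 without Al and 633 in wild type without Al, and was the 1 gene of the 9 past the rule without Al (2.07-fold higher in arf10/16, 1.87 to 2.28), near the 10.6% of all loci. In the same comparison the ratio of ASA2 was within counting error.

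Tryptophan also feeds indole glucosinolates and camalexin, and nitrilases can form auxin from indole-3-acetonitrile. Of 11 genes of these routes 8 passed the filter, and by the edgeR test 1 of them rose with Al and 2 fell, near the 28.5% of all loci. NIT2, a nitrilase gene, rose (3.40 ± 0.24; adjusted p = 5.25e-05), with 323 reads in arf10/16 and 210 in wild type with Al, against 39 and 17 without Al. NIT3, its relative, fell (-0.86 ± 0.20; adjusted p = 0.012), as did CYP79B3, which makes indole-3-acetaldoxime from tryptophan (-1.18 ± 0.19; adjusted p = 0.00226, all in the edgeR test). CYP79B2, which catalyses the same step, had 691 reads in arf10/16 and 674 in wild type with Al, against 1183 and 666 without Al. The median log2 genotype effect of the 8 was 0.51, beside 0.01 for all loci, and none passed the test for genotype. CYP83B1, the next step towards glucosinolates, was 1.53-fold higher in arf10/16 with Al (1.42 to 1.65), short of the rule of size, and 2.66-fold higher without Al (2.48 to 2.85).

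Of 16 transcription factors known to act on TAA1, YUC or ASA1 genes, 11 passed the filter; with Al 2 rose and 1 fell, and 2 were higher in arf10/16 over both treatments, in the edgeR test. The count with Al is near the 28.5% of all loci, and 1.86% of all loci were higher for genotype. SHI and LRP1, of the family of zinc finger proteins known to activate YUC genes, rose with Al (2.60 ± 0.72, adjusted p = 0.0272, and 2.13 ± 0.52, adjusted p = 0.0159, in the edgeR test). LRP1 had 13 reads in arf10/16 and 25 in wild type with Al, against 4 and 5 without Al, and SHI had 9 and 15, against 2 and 2. RRTF1, an ERF factor known to bind the ASA1 promoter, fell with Al (-1.53 ± 0.22; adjusted p = 0.00123) and was higher in arf10/16 over both treatments (2.30 ± 0.22; adjusted p = 0.0101, both in the edgeR test). It had 80 reads in arf10/16 with Al and 19 in wild type with Al, against 256 in arf10/16 without Al and 58 in wild type without Al. MYC2, the main transcription factor of jasmonate signalling, was also higher in arf10/16 (1.25 ± 0.20, adjusted p = 0.0288 in that edgeR test). It had 820 and 479 reads with Al and 1109 and 441 without Al. The genotype calls of RRTF1 and MYC2 did not hold in limma-trend on log2(RPKM + 0.1), which called 0 loci. On log2(RPKM + 1) limma-trend called 1 locus higher and 1 lower in arf10/16, so at most 1 of these calls held there. ERF1, of ethylene signalling and also known to bind the ASA1 promoter, had 33 reads in arf10/16 with Al, 20 in wild type with Al, 20 in arf10/16 without Al and 1 in wild type without Al. STY1, a relative of SHI, had 3, 12, 2 and 1 reads in the same order. Neither ERF1 nor STY1 passed the edgeR test for Al (adjusted p = 0.0693 and 0.121) or for genotype (adjusted p = 0.195 and 0.671). EIN3 and EIL1, the main transcription factors of ethylene signalling, had ratios of at most 1.28 with Al in wild type, and neither passed the rule of size.

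**Figure D5:**
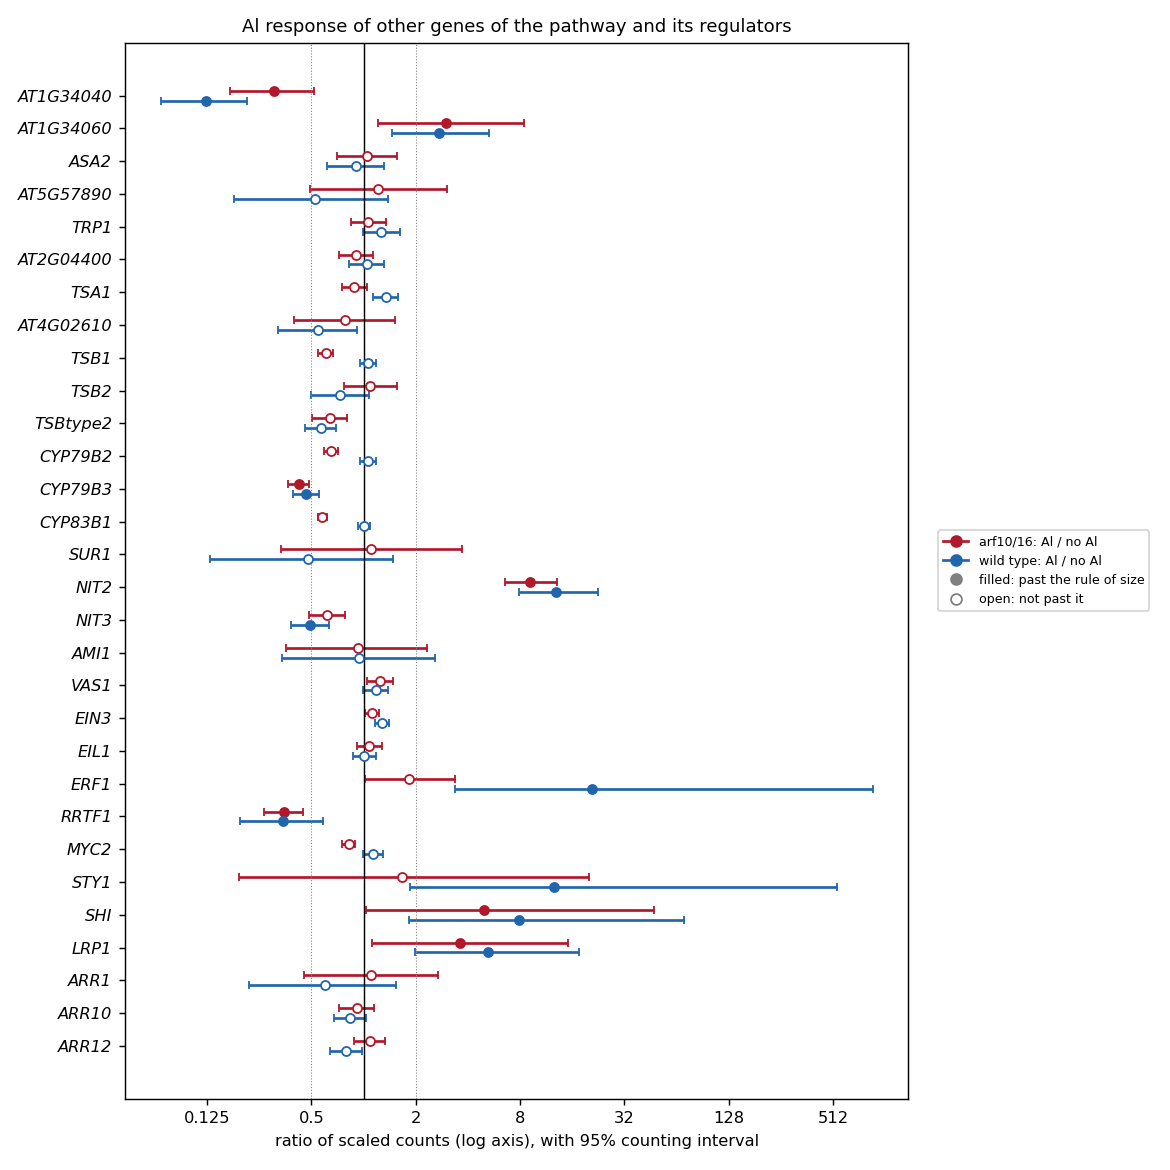
Ratio of scaled counts with Al over without Al (log axis) for the 30 listed pathway genes and regulators that passed the filter, in the pair labelled arf10/16 and in the wild-type pair; bars are exact 95% counting intervals and filled points are past the rule of size. NIT2 lies far to the right in both pairs (9.17 and 12.9) and AT1G34040 far to the left, whereas most genes of tryptophan synthesis lie near 1.

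The summed level of 7 root apex markers was 182 CPM in arf10/16 and 161 CPM in wild type with Al, against 196 and 214 CPM without Al; none of them was at 0 in any library, and none of the 6 that passed the filter changed with Al in the edgeR test, against 28.5% of all loci. PLT2, a regulator of the stem cell niche, was 6.52-fold lower with Al in wild type (2.75 to 18.8), with 6 reads with Al against 41 without Al, and had 20 and 30 reads in arf10/16. CYCB1;1, a mitotic cyclin gene, had 23 reads in both libraries with Al, 16 in arf10/16 without Al and 45 in wild type without Al. Of the markers of differentiated root, 6 of 6 fell with Al by that test, against 13.1% of all loci. This list was chosen with earlier results of these data known, so its count is a description only. The log2 effects ran from -2.22 for COBL9, a root hair gene, to -5.53 for IRT1, the iron transporter gene, and the others were PRP3, CASP1, PHT1;1 and NRT2:1. Of the 3 shoot markers that passed the filter, CAB1 and PSAD-1, genes of the photosystems, fell with Al (-0.98 ± 0.28 and -1.37 ± 0.40). The part of any of these sets of markers in the differences of YUC3 and TAA1 was not tested.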

How the data were processed

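Total RNA of roots was sequenced from libraries made with Illumina protocols, per the labels. The authors deposited raw read counts per transcript model and RPKM values per model; each RPKM, divided into its count and column total, gave a whole model length within 0.01 bases for 100% of values, and the deposited p-value columns were empty (0 values). No aligner, counter, genome build or strand setting was named: these stay not given in the sources used here. Counts were summed over the models of a locus (22284 loci), with an empty mark taken as 0. RPKM values were likewise summed. Loci were kept by filterByExpr with a minimum count of 10 (14739 loci, including all 8 described here) and scaled by TMM in edgeR 4.0.16 (R 4.3.3). Log2 ratios used a prior count of 2. Ratios carry exact Clopper-Pearson 95% intervals on both counts; the interval of a difference of responses comes from the 4 counts plus 0.5. The test was edgeR's quasi-likelihood test of genotype and treatment with Benjamini-Hochberg adjustment over all loci, at a threshold of 0.05; the SE is the absolute effect divided by the square root of F. The functions of the test were tried on simulated data. Its p-values rest on the 1 residual degree of freedom of the additive fit and on dispersion shared over all loci. They do not measure a spread between replicate libraries. Names came from RefSeq TAIR10.1, matched by locus (99.3% of loci), and were used without coordinates. Named list genes are those past the test or the rule of size, or copies of a gene described here, plus ASA2, EIN3, EIL1, CYP79B2 and TAR2, YUC2 and YUC7, which were chosen after their values were seen. Loci of like pattern are the 2 nearest by Euclidean distance. The genes, lists and rules were chosen with earlier results of these data known. Alternatives were scaling, prior count, filter, size limit, the most-read model alone, DESeq2 1.42.0 and limma-trend (limma 3.58.1) on log2(RPKM + 1) and log2(RPKM + 0.1).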

Additional observations from a re-analysis of the deposited data

Results flagged for a closer look

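For 3 of the 8 genes the Al ratio lay on opposite sides of 1 in the pair labelled arf10/16 and in wild type, as it did for 22.7% of all 14739 loci; with 1 library for each group the difference was not tested. For YUC8 the difference of the log2 responses was -1.28, with 30 reads with Al and 49 without in arf10/16, against 75 and 46 in wild type. For ASB1 it was -1.09, with 10 and 19 reads in arf10/16, against 7 and 5 in wild type, and for YUC5 it was -0.45, with 26 and 29 reads, against 28 and 21. The counting interval of the difference excluded 0 for YUC8 but not for ASB1 or YUC5, whose ratios were within counting error in both pairs, and YUC5 was nearly equal with and without Al in arf10/16.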

How the results depend on the processing

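Over the 5 unreplicated comparisons, scaling by DESeq2's size factors, a prior count of 0.5, the most-read model alone and no filter beyond 1 read left the 8 genes with the calls given above (YUC6 did not pass the filter with the most-read model, so edgeR gave no value for it there); total counts dropped TAA1 from the genotype comparison with Al, and a limit of 0.58 added YUC8 to the Al comparison in wild type. Total counts shifted the median log2 ratio of all loci from 0.00 to -0.12 in the genotype comparison without Al. With the limit of 0.58, the loci past the rule numbered 4749 for Al in the pair labelled arf10/16, 6058 for Al in wild type, 1926 and 2832 for genotype with and without Al, and 2056 for the difference of responses. For the Al effect, DESeq2's Wald test called 0 of the 8 genes and 1739 loci, against 1 and 4202 in edgeR's quasi-likelihood test, and edgeR called YUC3 under all its alternatives, as did limma-trend on both RPKM scales (adjusted p from 0.000747 to 0.143 with DESeq2's included). For the genotype effect 319 loci passed in edgeR's quasi-likelihood test, against 172 with total counts, 919 without the filter, 129 with the most-read model, 180 in DESeq2's Wald test, and 2 and 0 in limma-trend with pseudocounts of 1 and 0.1 (2339 and 2208 before adjustment). No paired analysis was possible because each group has 1 library and the labels give no replicate numbers; the additive model already sets Al against no Al within each genotype label. No library was left out, since a group would then be empty. The sums and shares without YUC3 or YUC8 were chosen after seeing the data. At 5 to 75 reads a gene, the counting intervals are wide and depth limits what can be told apart.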
